A study of Mus musculus with 19 samples.

Results

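STAT and SOCS signalling genes were described here in regulatory T cells (Tregs) from the lymph nodes of injured and uninjured mice. The set held 10 genes, found by their symbols in the table of counts: the transcription factors STAT3, STAT4, STAT5A, STAT5B and STAT6, the feedback inhibitors CISH, SOCS1, SOCS2 and SOCS3, and the kinase PIM1. They are 10 of 24982 genes in the table, and all 10 passed the filter on low counts with 11464 genes in all. The libraries were bulk RNA sequencing of 50000 CD4+FoxP3-GFP+ cells each, sorted into CD44high and CD44low Tregs from lymph nodes that drain the injury site. Foxp3DTR mice were used in every group, so all cells carried the GFP and diphtheria toxin receptor cassette in the Foxp3 gene. Injured mice were sampled 7 days after a burn, and the uninjured mice had the sham procedure, with anaesthesia, shaving and room temperature water. There were 4 libraries of CD44high and 5 of CD44low Tregs from uninjured mice, and 4 of CD44high and 6 of CD44low Tregs from injured mice. The ages of these mice, and whether a library came from 1 mouse or a pool, are not given in the labels, so p-values measure the spread between these libraries, which may be technical.

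Cytokine receptors of lymphocytes carry JAK kinases, which phosphorylate STAT proteins. The phosphorylated STATs enter the nucleus and switch on genes, among them CISH, the SOCS genes and PIM1, and the CISH and SOCS proteins then damp the same receptors. In Tregs the best known branch runs from interleukin 2 (IL-2) through JAK1, JAK3 and STAT5 to FOXP3, and STAT3, STAT4 and STAT6 are best known downstream of IL-6 and IL-23, IL-12, and IL-4. Read counts measure mRNA, and phosphorylation of a STAT protein was not measured in these libraries.

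STAT5 binds DNA at palindromes of the form TTCNNNGAA, where N is any base, and this motif was searched in RefSeq promoter windows (GRCm38.p6, 250 bases before to 50 bases after a gene's start). Windows were given for 9 of the 10 genes, SOCS2 being the exception. CISH held 2 matches and SOCS3 held 1, and the other 7 genes with a window held none. Among all 32851 promoter windows of the same length, 8.30% held at least 1 match and 0.457% held at least 2. The palindrome reads the same on both strands. The same arms, TTC and GAA, with 4 bases between them, a form associated with STAT6, was in 6.95% of all windows and in none of the 9 genes. A match is a description of letters, and absence from this window says nothing of a factor. The windows of the 2 genes with a match are shown, with the matches in capitals. The CISH window is chr9:107296409-107296708 on the plus strand, with the matches at positions 1 and 12 counted from the start. The SOCS3 window is chr11:117969317-117969616 on the minus strand, with the match at position -154.
CISH: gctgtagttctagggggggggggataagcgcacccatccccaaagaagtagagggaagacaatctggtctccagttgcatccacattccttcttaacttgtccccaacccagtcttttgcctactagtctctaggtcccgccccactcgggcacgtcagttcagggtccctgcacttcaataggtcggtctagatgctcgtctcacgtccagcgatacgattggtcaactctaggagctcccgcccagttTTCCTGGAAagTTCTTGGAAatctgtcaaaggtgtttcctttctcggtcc
SOCS3: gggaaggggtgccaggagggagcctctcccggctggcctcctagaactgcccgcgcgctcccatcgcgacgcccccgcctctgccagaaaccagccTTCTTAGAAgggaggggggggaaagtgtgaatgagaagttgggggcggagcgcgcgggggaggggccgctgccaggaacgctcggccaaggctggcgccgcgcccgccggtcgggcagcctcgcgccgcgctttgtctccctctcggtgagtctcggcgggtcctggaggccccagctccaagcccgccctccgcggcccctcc

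Library totals ran from 5582234 to 9433610 counts, and TMM factors from 0.970 to 1.04. Levels are given in CPM, counts scaled to the library size. The sorted subsets carried their defining transcripts. CD44 lay between 369 and 626 CPM in the CD44high libraries and between 102 and 155 CPM in the CD44low libraries, and FOXP3 was present in all 19 (47.6 to 181 CPM). Macrophage and dendritic cell markers (7 genes, mostly LYZ2) summed to 67.9 to 142 CPM in uninjured CD44high, 19.7 to 39.3 in uninjured CD44low, 86.4 to 234 in injured CD44high and 33.4 to 149 in injured CD44low libraries. CD14, a defining monocyte marker, was at or under 0.785 CPM throughout, but other genes of this list were present. CSF1R was at 4.83 to 15.1 CPM in uninjured CD44high and 1.35 to 7.03 CPM in uninjured CD44low libraries. CD68 was at 3.22 to 7.66 and 0 to 2.97 CPM in the same order. B cell markers (6 genes in the table) summed to 79.4 to 280 CPM, and CD8 and NK cell markers (6 genes) to 49.5 to 74.3 CPM. Neutrophil markers (6 genes) summed to at most 1.69 CPM in uninjured mice. After injury their medians were 6.99 CPM in CD44high and 2.19 CPM in CD44low libraries, with a highest value of 30.1 CPM in a CD44low library. S100A8 and S100A9 reached 16.3 and 12.6 CPM in injured CD44low libraries, with medians of 1.08 and 1.11 CPM. LY6G was at or under 0.323 CPM and MPO at or under 0.431 CPM. Stromal markers (6 genes) summed to 59.3 to 114 CPM in CD44high and 135 to 230 in CD44low libraries, nearly all of it PECAM1, with PDGFRA at 0 in all. Long genes stood relatively higher in uninjured CD44low libraries (a log2 trend of long minus short genes between 0.20 and 0.48) than in uninjured CD44high libraries (-0.15 to -0.06), and the trend spread from -0.63 to 0.37 after injury. The part of these markers and of the length trend in the results was not tested, except where a value without the trend is given.

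The genes lie on 6 chromosomes, and 3 of the STAT genes are neighbours on chromosome 11 (GRCm38, GENCODE vM21). STAT5B occupies chr11:100780731-100850724 on the minus strand, STAT5A chr11:100859351-100885169 on the plus strand, and STAT3 chr11:100885098-100939540 on the minus strand. STAT5A and STAT3 share 72 exonic bases at their 3′ ends. STAT5A and STAT5B are close paralogs, and 15.8% of the 50-base windows of the STAT5A transcript and 11.8% of those of STAT5B occur in both, so reads there could be split between them. For STAT4, 28.6% of windows were shared with Gm28177, and for SOCS2 18.4% with the pseudogenes Gm8000 and Gm9847. The annotation also puts antisense genes over exons of CISH (Gm17041 over 1459 bases, Gm17040 over 1167 bases) and of PIM1 (Gm26885 over 912 bases). These are exonic bases of CISH (6419 in all) and PIM1 (3362 in all) that lie inside the whole span of the antisense gene. The sources used here do not say whether the counting used strand. In those stretches reads of CISH or PIM1 and of the antisense genes therefore cannot be told apart.

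Per kilobase of exon, STAT6 and SOCS1 stood highest in uninjured CD44low Tregs. STAT6 was at 115 ± 10.5 CPM per kb (SD, n = 5), SOCS1 at 101 ± 2.64, STAT5B at 82.1 ± 6.03, STAT3 at 59.2 ± 7.70 and CISH at 54.1 ± 3.18. STAT4 followed at 49.3 ± 7.97, SOCS3 at 35.5 ± 4.26, STAT5A at 31.6 ± 3.07, PIM1 at 23.8 ± 2.95 and SOCS2 at 6.95 ± 1.14. The neighbours STAT3 and CISH, CISH and STAT4, and SOCS3 and STAT5A lay within their combined SD of each other. In uninjured CD44high Tregs CISH came first at 77.0 ± 5.37 CPM per kb (SD, n = 4), within its spread of STAT6 at 72.5 ± 4.90. In injured CD44high Tregs CISH was sixth of the 10, at 38.6 ± 6.47 CPM per kb, behind STAT6 at 80.5 ± 4.06, STAT5B, STAT3, SOCS1 and STAT4, and within its SD of STAT4 at 42.5 ± 2.87. With the longest transcript in place of all exons, STAT3 stood above STAT5B and STAT5A above SOCS3 in uninjured CD44low Tregs, and CISH stood above STAT5B and SOCS1 in injured CD44high Tregs.

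**Figure D1:**
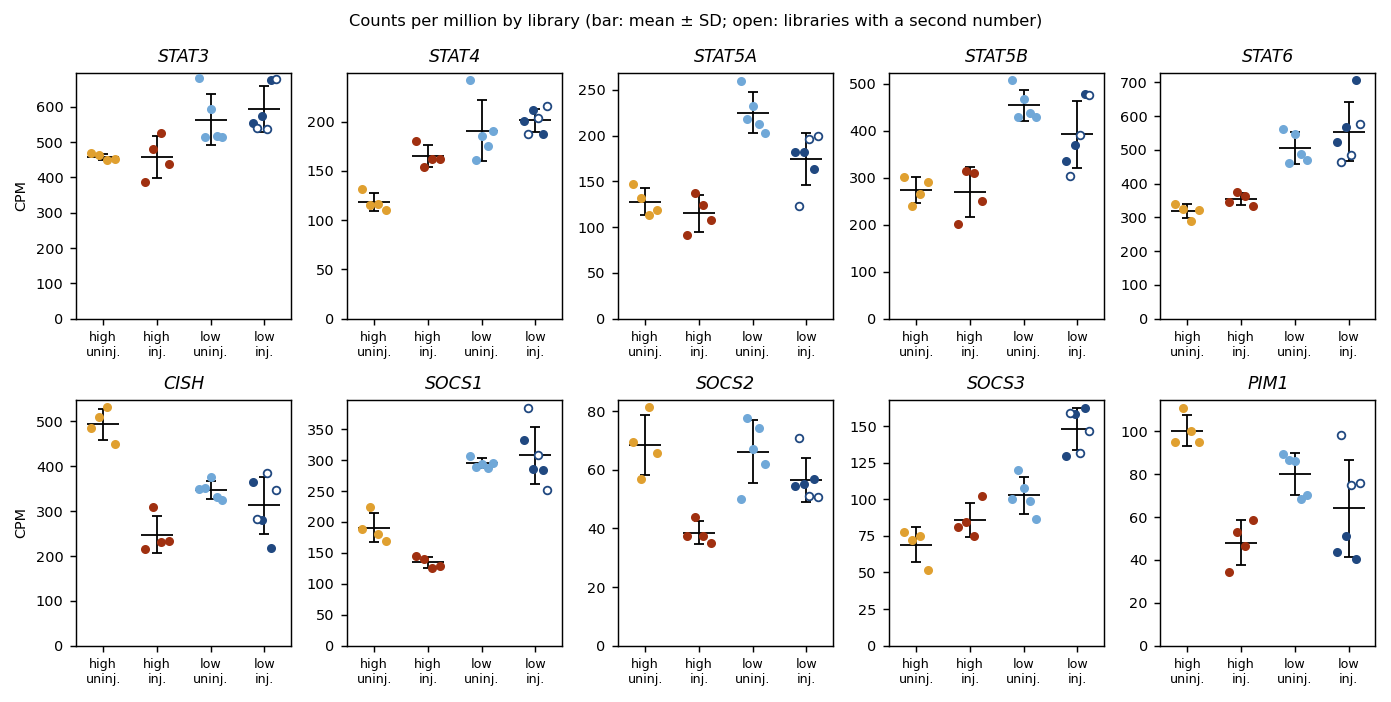
Levels in CPM of the 10 genes in each of the 19 libraries, with the CD44high and CD44low groups from uninjured and injured mice side by side. Points are libraries, bars the mean ± SD, and open points the injured CD44low libraries whose label has the additional number. CISH, SOCS1, SOCS2 and PIM1 were lower in injured than in uninjured CD44high Tregs without overlap, and all 5 STAT genes had lower means in CD44high than in CD44low Tregs.

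The first comparison asked how CD44high differed from CD44low Tregs in uninjured mice. The STAT genes were lower in CD44high Tregs, with STAT5A the furthest down at 0.567 times the CD44low level. SOCS1 and SOCS3 were lower as well, whereas CISH was higher at 1.42 times. Of the 10 genes, 1 was higher and 7 were lower in CD44high Tregs at an adjusted p under 0.05 (edgeR's quasi-likelihood test, adjusted by Benjamini-Hochberg over all genes tested). Over all genes 46.1% were called, 24.7% as higher and 21.3% as lower. The groups did not overlap for 9 of the 10 genes, against 40.7% of all genes. The median log2 difference was -0.60 over the 10 genes and 0.01 over all genes tested. No gene of the set reached the stricter rule of a p under 1e-06 with a change of 2-fold, which 8.3% of all genes met, and DESeq2 gave 0 as well. In bulk samples, fewer cells that express a gene and less of its RNA per cell cannot be told apart.

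STAT5A and STAT5B transmit the IL-2 signal. STAT5A was at 147, 131, 114 and 119 CPM in CD44high libraries 2 to 5 and at 260, 218, 232, 213 and 203 CPM in CD44low libraries 1 to 5. Every CD44high library lay under every CD44low library. The log2 difference was -0.82 (SE 0.14, edgeR adjusted p = 3.51e-05). STAT5B was at 302, 239, 267 and 290 CPM in CD44high and at 508, 430, 467, 438 and 430 CPM in CD44low libraries, again without overlap. Its log2 difference was -0.73 (SE 0.14, edgeR adjusted p = 0.000155).

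STAT6 transmits IL-4 and STAT4 transmits IL-12. STAT6 was at 340, 325, 289 and 323 CPM in CD44high and at 563, 462, 546, 487 and 469 CPM in CD44low libraries of uninjured mice, for a log2 difference of -0.66 (SE 0.11, edgeR adjusted p = 2.28e-05). STAT4 was at 131, 115, 116 and 110 CPM against 242, 161, 185, 175 and 191 CPM, a log2 difference of -0.69 (SE 0.11, edgeR adjusted p = 1.23e-05). For both genes the groups were fully apart. STAT3, which transmits IL-6, IL-10 and IL-23, showed the smallest difference of the 5 at a log2 value of -0.30 (SE 0.11, edgeR adjusted p = 0.0264), with 449 to 469 CPM in CD44high and 514 to 680 CPM in CD44low libraries. The STAT3 call was lost without CD44high library 4 (adjusted p = 0.0616) or 5 (0.0518), without CD44low library 1 (0.0819) or 3 (0.0512), and when the trend with gene length was taken out (log2 difference -0.03, adjusted p = 0.80). The calls for STAT4, STAT5A, STAT5B and STAT6 held in each of these settings.

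Among the feedback inhibitors the directions differed. CISH, a SOCS family protein that damps IL-2 receptor and T cell receptor signalling, was at 486, 510, 531 and 451 CPM in CD44high and at 351, 352, 377, 332 and 324 CPM in CD44low libraries. All 4 CD44high libraries were above all 5 CD44low libraries, with a log2 difference of 0.51 (SE 0.13, edgeR adjusted p = 0.00313). SOCS1, which inhibits JAK kinases directly, was at 188, 224, 181 and 170 CPM against 307, 289, 294, 288 and 296 CPM. Its CD44low libraries kept within a narrow range and above all CD44high libraries, with a log2 difference of -0.63 (SE 0.11, edgeR adjusted p = 5.48e-05). SOCS3, which binds the IL-6 receptor chain gp130, was at 77.6, 72.1, 74.9 and 51.7 CPM against 99.9, 120, 108, 98.6 and 86.6 CPM, a log2 difference of -0.57 (SE 0.13, edgeR adjusted p = 0.000963). SOCS2, an inhibitor best known in growth hormone signalling, overlapped between the subsets with 56.8 to 81.4 CPM in CD44high and 50.2 to 77.5 CPM in CD44low Tregs. Its log2 difference was 0.05 (95% interval -0.24 to 0.33).

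PIM1 encodes a serine and threonine kinase that promotes survival and growth downstream of STAT3 and STAT5. It was at 95.2, 111, 100.2 and 95.01 CPM in CD44high and at 89.4, 86.5, 86.0, 68.6 and 70.2 CPM in CD44low libraries of uninjured mice. The groups did not overlap, but the log2 difference of 0.32 (SE 0.20) did not pass the test (edgeR adjusted p = 0.196). When these 2 groups were fitted alone it did, with an adjusted p of 0.0201.

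**Figure D2:**
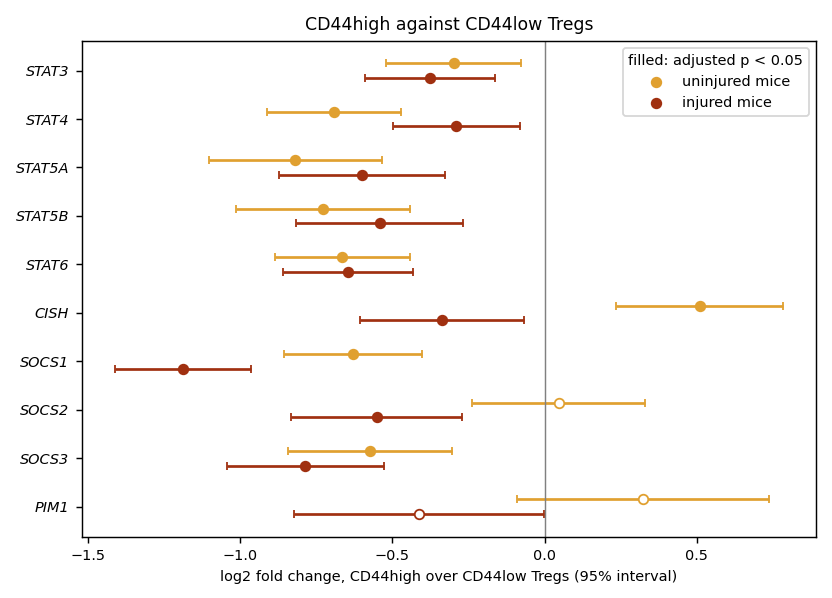
Log2 fold change of CD44high over CD44low Tregs for each gene in uninjured and in injured mice, with 95% intervals from the edgeR fit and filled points for an adjusted p under 0.05. CISH lay on opposite sides of 0 in uninjured (0.51) and injured mice (-0.34), and SOCS1 had the lowest value, -1.19, in injured mice.

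The same comparison in injured mice used other libraries throughout. All 9 genes called were lower in CD44high than in CD44low Tregs, CISH and SOCS2 now among them, and no gene of the set was higher (edgeR's quasi-likelihood test, 9 lower and 0 higher at an adjusted p under 0.05, 10 lower and 0 higher at an unadjusted p under 0.05, 9 lower and 0 higher by DESeq2). Over all genes 37.4% were called, 20.1% as higher and 17.2% as lower. The groups were apart for 6 of the 10 genes, against 24.8% of all genes. The median log2 difference was -0.55 over the 10 genes and -0.00 over all genes tested. SOCS1 was the 1 gene that also met the stricter rule of a p under 1e-06 and 2-fold, which 6% of all genes met.

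SOCS1 was at 145, 140, 126 and 129 CPM in the 4 injured CD44high libraries, while the 6 injured CD44low libraries ran from 251 to 384 CPM with a median of 297. No CD44high library came near the CD44low range, and the log2 difference was -1.19 (SE 0.11, edgeR adjusted p = 5.52e-09). SOCS3 was at 81.4, 84.7, 74.6 and 102 CPM against 129 to 162 CPM with a median of 152, a log2 difference of -0.79 (SE 0.13, edgeR adjusted p = 2.47e-05). SOCS2 was at 37.5, 44.1, 37.4 and 35.1 CPM against 50.7 to 70.8 CPM with a median of 54.7. Its groups were apart in injured mice, with a log2 difference of -0.55 (SE 0.14, edgeR adjusted p = 0.00249).

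CISH was at 216, 309, 232 and 234 CPM in injured CD44high libraries and between 218 and 386 CPM, with a median of 315, in injured CD44low libraries. The ranges overlapped, and the log2 difference of -0.34 (SE 0.13, edgeR adjusted p = 0.0439) was close to the threshold. This call was lost without injured CD44high library 2 (adjusted p = 0.111), 4 (0.114) or 5 (0.114), without injured CD44low library 1 (0.0698), 4_2 (0.0892) or 5_2 (0.0688), and without uninjured CD44high library 4 (0.0513), which enters through the shared estimate of the spread. It was also lost without the libraries 1_2, 4_2 and 5_2 (log2 difference -0.21, adjusted p = 0.260), with these 2 groups fitted alone (0.104) and with the length trend taken out (0.0536).

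The STAT genes kept the direction they had in uninjured mice. STAT6 differed by -0.65 on the log2 scale (SE 0.10, edgeR adjusted p = 2.78e-05), with 335 to 374 CPM in CD44high and 465 to 706 CPM in CD44low Tregs. STAT5A differed by -0.60 (SE 0.13, adjusted p = 0.000906) and STAT5B by -0.54 (SE 0.13, adjusted p = 0.00245) in the same test, and in both the ranges overlapped. STAT3 differed by -0.38 (SE 0.10, adjusted p = 0.00618) without overlap, and this call held with the length trend taken out (adjusted p = 0.0176). STAT4 differed by -0.29 (SE 0.10, adjusted p = 0.0276), a call that was lost without injured CD44high library 3 (adjusted p = 0.0803), 4 (0.0664) or 5 (0.0706), without the injured CD44low libraries 1_2, 4_2 and 5_2 (0.0716), or with a replicate block nested in injury (0.0551). PIM1 differed by -0.41 (SE 0.20, adjusted p = 0.105) in edgeR. It passed without injured CD44low library 1 (-0.52, adjusted p = 0.0360) or 5 (-0.53, 0.0292), and with libraries 1 and 1_2, and 5 and 5_2, summed (-0.39, 0.0456).

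The next comparison asked how CD44high Tregs changed with injury. CISH, SOCS1, SOCS2 and PIM1 fell and STAT4 rose, while STAT3, STAT5A, STAT5B, STAT6 and SOCS3 did not pass the test. Thus 5 of the 10 genes were called at an adjusted p under 0.05, 1 higher and 4 lower, in edgeR's quasi-likelihood test after Benjamini-Hochberg adjustment, and DESeq2 gave the same counts. Over all genes 2.38% were called, 1.06% as higher and 1.33% as lower. Those 5 genes were also the ones without overlap between the groups, against 13.3% of all genes. The median log2 change was -0.09 over the 10 genes and -0.02 over all genes tested. No gene of the set met a p under 1e-06 with a 2-fold change in edgeR or DESeq2, a rule that 0.148% of all genes met in edgeR.

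CISH went from 486, 510, 531 and 451 CPM in uninjured to 216, 309, 232 and 234 CPM in injured CD44high libraries. The highest injured library was well below the lowest uninjured library. CISH fell by 0.996 on the log2 scale (SE 0.14, 95% interval -1.29 to -0.70, edgeR adjusted p = 0.000217), to 0.501 times the uninjured level, and ranked 18 of 11464 genes by p. PIM1 went from 95.2, 111, 100.2 and 95.01 CPM to 34.3, 52.8, 46.4 and 58.7 CPM. All injured libraries lay under all uninjured ones, and PIM1 fell by 1.06 on the log2 scale (SE 0.22, edgeR adjusted p = 0.00631), to 0.479 times the uninjured level.

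SOCS2 went from 69.5, 56.8, 81.4 and 65.9 CPM to 37.5, 44.1, 37.4 and 35.1 CPM. Its groups were apart, and it fell by 0.83 on the log2 scale (SE 0.15, edgeR adjusted p = 0.00208), to 0.563 times the uninjured level. SOCS1 went from 188, 224, 181 and 170 CPM to 145, 140, 126 and 129 CPM, also without overlap. It fell by 0.50 on the log2 scale (SE 0.11, edgeR adjusted p = 0.0182). The SOCS1 call was lost without uninjured CD44high library 2 (adjusted p = 0.0520) or 3 (0.109) and without injured CD44high library 4 (0.0658) or 5 (0.0695). The calls for CISH, SOCS2 and PIM1 held under each library left out and with the length trend taken out.

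STAT4 was the 1 gene of the set that rose, from 131, 115, 116 and 110 CPM to 180, 154, 162 and 162 CPM. The ranges did not overlap, and the log2 change was 0.48 (SE 0.11, edgeR adjusted p = 0.0190). Its call was lost without uninjured CD44high library 3 (adjusted p = 0.0596), 4 (0.0535) or 5 (0.0696) or injured CD44high library 2 (0.0671). The other STAT genes had log2 changes of -0.00 for STAT3 (95% interval -0.24 to 0.23), -0.15 for STAT5A (-0.44 to 0.15), -0.03 for STAT5B (-0.32 to 0.27) and 0.15 for STAT6 (-0.08 to 0.38). SOCS3 had a log2 change of 0.31 (95% interval 0.03 to 0.60, edgeR adjusted p = 0.263), with 51.7 to 77.6 CPM before and 74.6 to 102 CPM after injury. Among the marker lists, the neutrophil sum was 2.12 to 19.8 CPM in injured and 0 to 0.500 CPM in uninjured CD44high libraries, and the median macrophage and dendritic cell sum was 123 against 94.8 CPM with overlap. The stromal sum was 78.4 to 114 against 59.3 to 73.7 CPM, but nearly all of it was PECAM1 (77.6 to 111 against 56.1 to 70.7 CPM). COL1A1, of the same list, overlapped at 0.663 to 2.26 against 1.42 to 3.22 CPM. The B cell sum and the CD8 and NK cell sum overlapped. Within those lists CD22 (56.4 to 73.4 against 13.0 to 26.9 CPM) and KLRB1C (10.2 to 16.6 against 1.60 to 6.77 CPM) were apart. The part of these markers in the changes was not tested.

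The effect of injury in CD44low Tregs was compared in the same way. SOCS3 rose, and no other gene of the set passed the test, so 1 of 10 was called in edgeR's quasi-likelihood test after Benjamini-Hochberg adjustment, 1 higher and 0 lower. At an unadjusted p under 0.05 there were 1 higher and 1 lower, and by DESeq2 1 higher and 0 lower. Over all genes 7.6% were called, 4.24% as higher and 3.36% as lower. The groups were apart for 2 genes, SOCS3 and STAT5A, against 4.68% of all genes. No gene of the set met a p under 1e-06 with a 2-fold change in edgeR or DESeq2, which 0.122% of all genes met in edgeR. The median log2 change was -0.04 over the 10 genes and 0.01 over all genes tested.

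SOCS3 went from 99.9, 120, 108, 98.6 and 86.6 CPM in uninjured CD44low libraries to between 129 and 162 CPM, with a median of 152, in the 6 injured ones. The lowest injured library was above the highest uninjured library, and the log2 change was 0.53 (SE 0.12, edgeR adjusted p = 0.00873). The call held with each library left out, with the length trend taken out, and with either set of injured CD44low libraries described below. STAT5A went from 203 to 260 CPM down to between 123 and 200 CPM with a median of 182, fully apart. Its log2 change of -0.37 (SE 0.12) missed the threshold (edgeR adjusted p = 0.0597) and passed it without injured library 5_2 (0.0367). CISH had a log2 change of -0.15 (95% interval -0.40 to 0.10), SOCS2 of -0.23 (-0.49 to 0.03) and SOCS1 of 0.06 (-0.14 to 0.26). STAT3 had a log2 change of 0.07 (adjusted p = 0.674), and with the length trend taken out 0.27 (adjusted p = 0.0304).

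**Figure D3:**
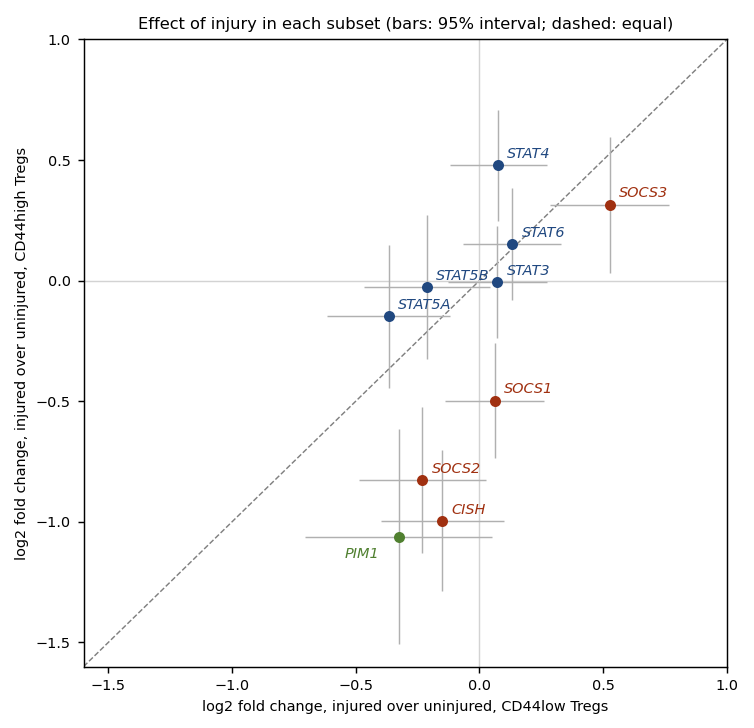
Log2 change with injury in CD44low Tregs (horizontal axis) against that in CD44high Tregs (vertical axis) for each gene, with 95% intervals from the edgeR fit and the dashed line where both are equal. CISH, SOCS1, SOCS2 and PIM1 lie under the line with changes of -0.996, -0.50, -0.83 and -1.06 in CD44high Tregs, and SOCS3 lies to the right at 0.53 in CD44low Tregs.

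Injured CD44low libraries came in 2 sets by their labels, 1, 2 and 5, and 1_2, 4_2 and 5_2. What the additional number stands for is not given. PIM1 was at 43.7, 51.3 and 40.4 CPM in libraries 1, 2 and 5 and at 98.3, 75.2 and 75.8 CPM in libraries 1_2, 4_2 and 5_2. The sets did not overlap, with means of 45.1 ± 5.61 and 83.1 ± 13.2 CPM (SD, n = 3 each). PIM1 was the only gene of the set apart in this way, as were 19.3% of all genes tested. Over all 6 libraries PIM1 changed with injury by -0.33 on the log2 scale (SE 0.18, edgeR adjusted p = 0.262). Without libraries 1_2, 4_2 and 5_2 the value was -0.83 (adjusted p = 0.00155), and without libraries 1, 2 and 5 it was 0.07 (adjusted p = 0.828). The difference between CD44high and CD44low Tregs in injured mice was likewise 0.09 (adjusted p = 0.714) against the first set and -0.81 (adjusted p = 0.000434) against the other. The direction of PIM1 in injured CD44low Tregs thus depended on which set was used, whereas the fall of PIM1 in CD44high Tregs used none of these libraries directly.

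Whether injury acted differently in the 2 subsets was tested as an interaction, the log2 change in CD44high minus that in CD44low Tregs. CISH alone passed, with -0.85 (SE 0.19, 95% interval -1.23 to -0.46, edgeR adjusted p = 0.0280). Over all genes 0.645% were called, 0.192% as higher and 0.454% as lower. This was the gene whose subset difference stood at 0.51 in uninjured and -0.34 in injured mice. The CISH call was lost without uninjured CD44high library 2 (adjusted p = 0.0557), 3 (0.0675) or 4 (0.0720), uninjured CD44low library 4 (0.0507) or 5 (0.0561), injured CD44high library 4 (0.0761) or 5 (0.0812), or injured CD44low library 1 (0.0506), and with a replicate block nested in injury (-0.95, 0.0620). The value itself stayed between -0.97 and -0.78 with a library left out, and the call held with either set of injured CD44low libraries, at 0.0343 without 1_2, 4_2 and 5_2 and at 0.00362 without 1, 2 and 5.

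For the other genes of the set the interaction did not pass. SOCS1 had -0.56 (SE 0.15, edgeR adjusted p = 0.0890), which passed in DESeq2 (0.0177), without injured CD44low library 5_2 (0.0402) and without the libraries 1_2, 4_2 and 5_2 (0.0324). SOCS2 had -0.60 (SE 0.19, adjusted p = 0.178), PIM1 -0.74 (SE 0.28, adjusted p = 0.292) and STAT4 0.40 (SE 0.15, adjusted p = 0.258) in edgeR. PIM1 passed without libraries 1, 2 and 5 of injured CD44low Tregs, at -1.12 (adjusted p = 0.00810). SOCS3, called in CD44low and not in CD44high Tregs, had an interaction of -0.21 (95% interval -0.58 to 0.16), so a difference between the subsets in its response was not shown.

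**Figure D4:**
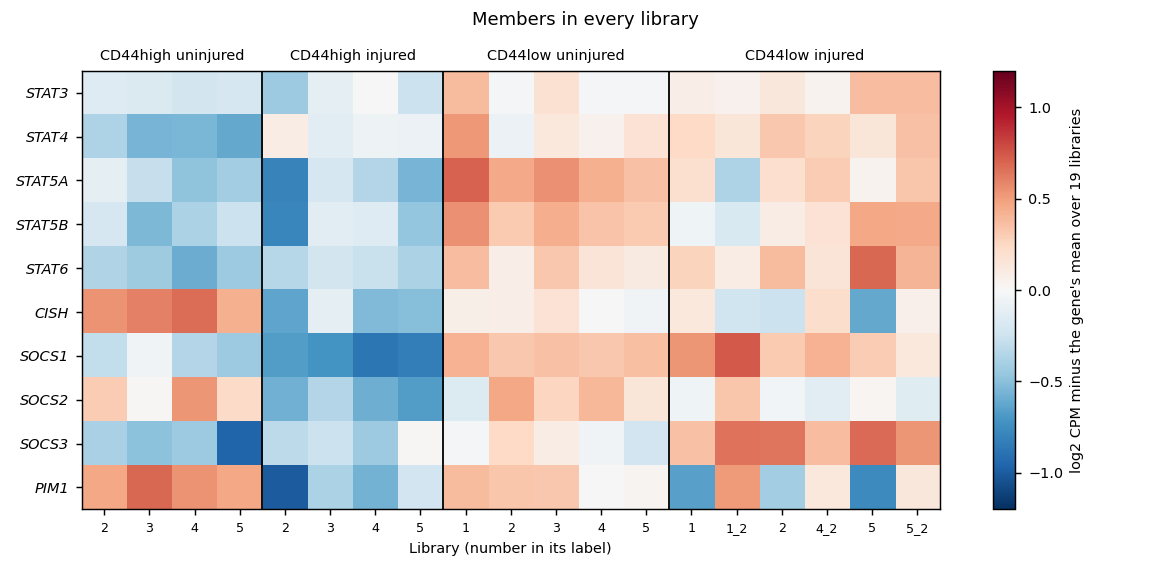
Log2 CPM of the 10 genes in every library, shown as the difference from each gene's mean over the 19 libraries (red above, blue below the mean). The CISH, SOCS2 and PIM1 rows turn from red in uninjured to blue in injured CD44high libraries, and the STAT5A, STAT6 and SOCS1 rows are blue in all 8 CD44high libraries.

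With the group means taken out, the Pearson correlation of log2 CPM over the 19 libraries was 0.82 for STAT3 and STAT5B, 0.75 for STAT3 and STAT6, 0.69 for STAT5A and STAT5B and 0.67 for STAT5B and STAT6. STAT3 and STAT5A had 0.58 and STAT5A and STAT6 0.45, and STAT4 stood lower with the other STAT genes, from 0.12 with STAT5B to 0.34 with STAT3. The lowest values were -0.68 for STAT5B and SOCS1 and -0.66 for STAT4 and SOCS2. Some of these moved over the 13 libraries left without injured CD44low Tregs. STAT4 and STAT6 then had 0.53, STAT5A and STAT6 0.75, STAT3 and STAT5A 0.81, and STAT5B and SOCS1 -0.43. STAT4 and STAT5B stayed low at 0.07, and STAT4 and SOCS2 stayed at -0.66. These libraries also share a trend with gene length, so the values are descriptions only. Among all genes tested, the pattern closest to STAT5B was that of IL6ST, the gp130 receptor chain (r = 0.97), and the closest to STAT3 was SMARCA2 (r = 0.96). CISH was closest to CRIM1 (r = 0.81), PIM1 to DIEXF (r = 0.90), SOCS1 to ORAI1 (r = 0.89), SOCS2 to C730014E05RIK (r = 0.81) and SOCS3 to ZFP446 (r = 0.74). STAT6 was closest to UNK (r = 0.89) and STAT4 to B9D1 (r = 0.87), the last a gene at only 1.16 CPM on average. The nearest genes after these were EDC4 for STAT3, PARS2 for STAT4, STK4 for STAT5B, KPNA1 for STAT6, NUP62 for CISH, PSMG1 for SOCS1, RCL1 for SOCS2, MBLAC1 for SOCS3 and USF3 for PIM1.

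The other genes of the pathway were followed as lists, starting with the kinases and the family members outside the set. The shares of all genes called in each comparison, given above for the set, apply to these lists as well. They are shares at the adjusted threshold in edgeR. Shares of all genes at an unadjusted p under 0.05 or by DESeq2 were not counted. Counts of that kind, for the set or for any list, thus have no share to be set against. Of the 4 JAK kinases, JAK1 was lower in CD44high Tregs of uninjured mice, at 1074 ± 66.9 against 1711 ± 136 CPM (SD, n = 4 and 5; log2 difference -0.67, edgeR adjusted p = 0.000126). JAK3, the partner of the common gamma chain, was higher at 466 ± 53.7 against 304 ± 16.01 CPM (0.62, adjusted p = 3.00e-05). In injured mice JAK1 alone differed (-0.65, adjusted p = 0.000174). With injury no JAK kinase was called in either subset by edgeR, though 1 was lower in CD44high Tregs at an unadjusted p under 0.05 and by DESeq2, and 0 in CD44low Tregs by either. Of the 8 other STAT, SOCS and PIM genes, SOCS5 (-0.73, adjusted p = 0.00662), PIM3 (-0.44, adjusted p = 0.0133) and SOCS6 (-0.39, adjusted p = 0.0309) were lower in CD44high Tregs of uninjured mice, and PIM3 also in injured mice (-0.55, adjusted p = 0.00263). The other 5 were not called in either comparison of the subsets. None of the 8 was called with injury in edgeR or DESeq2, with 1 and 4 at an unadjusted p under 0.05 in CD44high and CD44low Tregs.

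Of 9 other brakes of the pathway, SH2B3, the adaptor LNK, was lower in CD44high Tregs of uninjured mice (log2 difference -1.002, edgeR adjusted p = 7.15e-06) and of injured mice (-0.54, adjusted p = 0.00389). PIAS3, an inhibitor of STAT3, was higher in uninjured mice (0.82, adjusted p = 0.00758), as was the phosphatase PTPN1 (0.30, adjusted p = 0.0198). PTPN6, the phosphatase SHP-1, rose with injury in both subsets. It went from 347 ± 18.8 to 493 ± 69.7 CPM in CD44high Tregs (0.51, adjusted p = 0.0171) and from 408 ± 19.4 to 550 ± 80.7 CPM in CD44low Tregs (0.43, adjusted p = 0.0113). PTPN1 rose in CD44low Tregs (0.32, adjusted p = 0.0372).

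Of 24 receptor chains in the list 21 were tested, and 8 were higher and 9 lower in CD44high Tregs of uninjured mice. Over all genes 24.7% were called as higher and 21.3% as lower there. Higher were IL9R (log2 difference 3.59), IL12RB1 (2.00) and IL10RA (1.497), and lower were IL6ST (-1.38), IL4RA (-1.18) and IFNGR2 (-0.86), with edgeR adjusted p between 8.31e-11 and 9.05e-06. IL4RA and STAT6, the receptor chain and the factor of the IL-4 signal, were both lower in CD44high Tregs, at 267 ± 22.8 against 604 ± 33.2 CPM for IL4RA. In injured mice 5 chains were higher and 8 lower, against 20.1% and 17.2% of all genes. IL23R, IL12RB1 and IL9R were among the higher (4.09, 1.83 and 3.02) and IFNGR1, IL4RA and IFNGR2 among the lower (-0.92, -1.13 and -0.73). The value of IL23R rests on 0 to 0.713 CPM in injured CD44low libraries, so its size is uncertain. IL23R passed the filter only through CD44high libraries, so its place among the higher chains is no independent evidence. With injury, 1 chain rose and 0 fell in CD44high Tregs, against 1.06% and 1.33% of all genes. This was IFNGR1, which changed by 0.39 (edgeR adjusted p = 0.0487). At an unadjusted p under 0.05 there were 3 higher and 3 lower, and by DESeq2 1 and 0. In CD44low Tregs 3 rose and 0 fell, against 4.24% and 3.36% of all genes. At an unadjusted p under 0.05 there were 5 higher and 1 lower, and by DESeq2 3 and 0.

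The 3 that rose in CD44low Tregs were the receptors of IL-7, interferon gamma and IL-2. IL7R went from 135 ± 20.9 to 328 ± 83.6 CPM (log2 change 1.28, edgeR adjusted p = 1.72e-05), IFNGR1 from 469 ± 27.9 to 794 ± 87.9 CPM (0.76, adjusted p = 2.69e-05) and IL2RB, the beta chain of the IL-2 receptor, from 1412 ± 78.1 to 1874 ± 203 CPM (0.41, adjusted p = 0.00467). In CD44high Tregs IL7R was at 344 ± 29.3 before and 355 ± 37.3 CPM after injury, and IL2RB at 1884 ± 82.2 and 1633 ± 149 CPM. Both had a negative interaction, of -1.23 for IL7R (adjusted p = 0.00417) and -0.61 for IL2RB (adjusted p = 0.0157). IL2RA, the alpha chain or CD25, was at 543 ± 15.01 CPM in uninjured and 404 ± 117 CPM in injured CD44high Tregs (-0.43, edgeR adjusted p = 0.153), so it was not called. A link to the called falls of CISH, SOCS1, SOCS2 and PIM1 there was not tested.

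**Figure D5:**
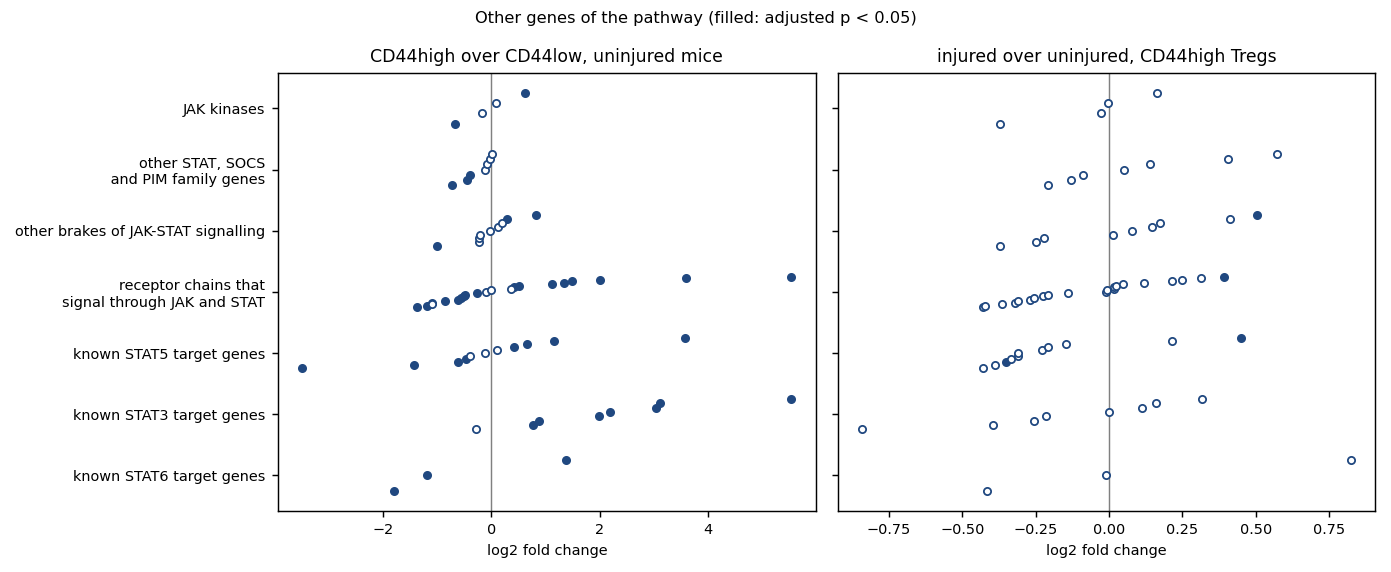
Log2 fold change of other pathway genes, one row of points per list drawn (the STAT4 targets and 1 further gene are not drawn), for CD44high over CD44low Tregs of uninjured mice (left) and for injured over uninjured mice in CD44high Tregs (right), with filled points for an adjusted p under 0.05. The axes differ between the panels. In the left panel 7 of the 8 STAT3 target genes lie right of 0 and are filled, where 24.7% of all genes were called as higher. IL23R, among them, passed the filter only through CD44high libraries, and the list was chosen with earlier results known. In the right panel few points are filled.

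Genes known as targets of each STAT were counted next. Of 11 STAT5 targets, 4 were higher and 4 lower in CD44high Tregs of uninjured mice, against 24.7% and 21.3% of all genes. PRDM1, the effector Treg factor BLIMP-1, was higher (log2 difference 3.58), as were BCL2L1 (1.16) and CCND3 (0.66), and the survival gene BCL2 (-3.48), MYC (-1.42) and MCL1 (-0.46) were lower, with edgeR adjusted p of at most 0.000480. In injured mice 2 were higher and 5 lower, against 20.1% and 17.2% of all genes. With injury MYC rose (0.45, adjusted p = 0.0217) and CCND3 fell (-0.35, adjusted p = 0.0405) in CD44high Tregs, and IL2RB alone rose in CD44low Tregs by edgeR, where DESeq2 called 3 as higher. CCND3 had an interaction of -0.56 (adjusted p = 0.0238). Over the 11 genes the median log2 change with injury in CD44high Tregs was -0.31, against -0.02 over all genes tested. At an unadjusted p under 0.05 in edgeR there were 1 higher and 6 lower, and after adjustment 1 and 1. The share of all genes at the unadjusted threshold was not counted, so the 6 cannot be set against it.

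Of 8 STAT3 targets, 7 were higher in CD44high Tregs in uninjured and 7 in injured mice, against 24.7% and 20.1% of all genes. IL23R, among them, was at 0 to 0.675 CPM in uninjured and 0 to 0.713 CPM in injured CD44low libraries. It passed the filter only through CD44high libraries, so it could only be called as higher. The list was chosen with earlier results of these data known, so these counts are descriptions and not independent evidence. STAT3 itself was lower in both, though its call in uninjured mice was lost in the settings given above, the length trend among them. The leading genes were RORA (log2 differences 3.11 and 2.47), MAF (3.03 and 2.27) and BATF (2.00 and 1.70), with edgeR adjusted p of at most 8.84e-09. The median log2 difference over the list was 2.09 in uninjured and 1.94 in injured mice, against 0.01 and -0.00 over all genes tested. None of the 8 was called with injury in CD44high Tregs by edgeR, with 1 higher and 2 lower at an unadjusted p under 0.05 and 1 lower by DESeq2. In CD44low Tregs BATF (0.62, adjusted p = 0.00905) and MAF (0.76, adjusted p = 0.0409) rose and JUNB fell (-0.92, adjusted p = 0.0176), where 4.24% of all genes were called as higher and 3.36% as lower. RORA had an interaction of -0.64 (edgeR adjusted p = 0.0426).

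Of the STAT4 targets, TBX21, which encodes T-bet, and IL18R1 were higher in CD44high Tregs of uninjured mice (log2 differences 2.35 and 1.84) and of injured mice (1.34 and 1.46), with edgeR adjusted p of at most 5.16e-06. With injury TBX21 fell in CD44high Tregs, from 32.3 ± 1.69 to 14.1 ± 2.35 CPM (-1.195, adjusted p = 0.00121), while STAT4 rose there. All 3 STAT6 targets differed between the subsets, in both directions, where 46.1% of all genes were called in uninjured and 37.4% in injured mice. A list of 3 genes is too short to read more from this. GATA3 was higher in CD44high Tregs (1.38 in uninjured and 0.97 in injured mice), and IL4RA (-1.18 and -1.13) and GFI1 (-1.79 and -1.02) were lower, with edgeR adjusted p of at most 0.00181. No STAT6 target was called with injury in either subset by edgeR, where 1 was higher and 1 lower in CD44high Tregs at an unadjusted p under 0.05 and 1 lower by DESeq2. Several genes stand in more than 1 list, IL2RA and IL2RB among receptors and STAT5 targets and IL4RA among receptors and STAT6 targets.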

How the data were processed

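The authors made cDNA with a SMART-Seq kit and Swift libraries and deposited 1 table of raw counts per gene, made with STAR through the VIPER workflow. The submitters' processing notes name STAR 2.5, bcl2fastq 2.18 and the builds mm9 and mm10, without saying which build the counts use. Their annotation is not named there or in the methods. No gene's reads carry molecular identifiers in these counts.

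R 4.3.3 with edgeR 4.0.16 and DESeq2 1.42.0 was used on these counts. Genes were filtered at a minimum count of 10, scaled by TMM and fitted with group means only, in 4 groups, and no replicate block. CPM are over TMM-scaled totals of the 11464 genes tested, and for the cell type markers of all 24982 genes in the table. The two-sided quasi-likelihood test was adjusted by Benjamini-Hochberg over all genes tested and called at 0.05. The study's tool, DESeq2, and its threshold (p under 1e-06 and 2-fold, taken as unadjusted) were alternatives, with others in the closing section. The test was checked on simulated data. Figures used Python 3.11.15 and matplotlib 3.10.9.

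The members and lists were chosen with earlier results of these data known, so they are not independent evidence. All 10 members were named, and from each other list up to 3 called genes of smallest p per direction. Genes not called, and further values of IL7R, IL2RB and IL2RA, were named after their values were seen. The gene closest in pattern to STAT5A and part of the STAT target lists are not reported here.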

Additional observations from a re-analysis of the deposited data

Results flagged for a closer look

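SOCS2 in injured CD44low library 1_2 stood at 70.8 CPM, with the nearest of the other 5 libraries at 56.9 CPM, a gap beyond Dixon's critical value for a group of this size. It was the 1 such value among 40 groups searched (10 genes in 4 groups), and chance gives about 1 in 20.

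The effect of injury on CISH differed between the subsets by -0.85 on the log2 scale (CD44high minus CD44low, edgeR adjusted p = 0.0280, and 0.0620 with a replicate block nested in injury). CISH was lower in all 4 injured than in all 4 uninjured CD44high libraries, while the CD44low groups overlapped.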

How the results depend on the processing

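Of 50 log2 values (10 genes in 5 comparisons), 30 kept their direction and their side of the threshold under every alternative run, 9 changed sign under some alternative, 6 calls were lost and 7 were gained under some.

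With a 2-fold change added to the adjusted p under 0.05, the genes called were 0 for CD44high against CD44low Tregs in uninjured and 1 in injured mice, 1 and 0 for injury in CD44high and CD44low Tregs, and 0 for the interaction. At a p under 1e-06 with 2-fold they were 0, 1, 0, 0 and 0. With 1 library left out the counts ran from 7 to 8, 7 to 10, 3 to 5, 1 to 2 and 0 to 2 in the same order. The lowest count for injury in CD44high Tregs, 3, came without uninjured library 3, and the highest in CD44low Tregs, 2, without library 5_2. For injury in CD44low Tregs 2 were also called without libraries 1_2, 4_2 and 5_2 and with the length trend taken out. The interaction had 2 calls in DESeq2, without libraries 1_2, 4_2 and 5_2 and without libraries 1, 2 and 5. The library sets 1, 2 and 5 and the length trend were tried after the data were seen.

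The correlations of same-numbered libraries' deviations ran from -0.12 to 0.17. Between the injured subsets 3 of 4 pairs passed 0.1 (0.167, 0.101 and 0.116, but -0.0537 for 5 with 5_2), and in the other comparisons at most 1 did. Libraries of different numbers were not correlated for reference, so these values cannot settle whether the samples are paired. The main fit treated them as unpaired. A replicate block nested in injury left 0 genes with an interaction, the CISH value being -0.95 (adjusted p = 0.0620), and took the STAT3 call in uninjured mice (0.0944) and the STAT4 call in injured mice (0.0551, and 0.114 with a block on the number alone). Under that block the sign turned for SOCS2 in uninjured mice (-0.0434) and for the interactions of STAT5A (-0.0348), STAT5B (-0.0411) and STAT6 (-0.0927). Neither block changed another call of the 10 genes in the comparisons it was fitted to.

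The other changes of sign concerned values that were not called. PIM1 became 0.0891 between the subsets in injured mice without 1_2, 4_2 and 5_2, and 0.0732 with injury in CD44low Tregs without 1, 2 and 5. With injury in CD44high Tregs, STAT3 became 0.0139 without the filter, 0.0226 with the groups alone, 0.00672 without 1, 2 and 5 and 0.0547 with the length trend taken out. STAT5B there became 0.00165 with the groups alone and 0.00637 with the length trend taken out. SOCS1 in CD44low Tregs became -0.0146 with the length trend taken out. The STAT6 interaction became -0.000903 in DESeq2, -0.00155 with RLE factors and -0.0933 without 1_2, 4_2 and 5_2. With 1 library left out these values ran from -0.0467 to 0.113 (SOCS2, uninjured), -0.0758 to 0.0792 (STAT3), -0.107 to 0.102 (STAT5B), -0.0120 to 0.134 (SOCS1) and -0.0306 to 0.0949 (STAT6). The cause was not tested.

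With 4 to 6 libraries a group, a value that was not called is not shown to be 0.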
